A study of Rattus norvegicus with 4 samples.

Results

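The collagens were followed in rat ovaries (Rattus norvegicus) cultured with or without anti-Müllerian hormone (AMH), a TGF-beta family hormone that granulosa cells of growing follicles secrete. Members were chosen by name alone: every probe set whose single gene symbol in the array annotation began with Col, a number, the letter a and a number. The rule took 58 probe sets of 41 genes, out of 31099 probe sets on the array and 14218 genes named by a single symbol, and all 41 symbols were collagen chains. The AMH group was whole ovaries of postnatal day 4 cultured on floating filters for 10 days with 50 ng/mL AMH, and the control group was such ovaries cultured for the same 10 days with nothing added. The study asked how AMH acts on the ovarian transcriptome as it holds back primordial follicles. Both groups shared a medium with albumin and transferrin that held insulin at 200 µg/mL and ascorbic acid, the cofactor of collagen hydroxylation, at 0.05 µg/mL. Each sample was a pool of about 10 ovaries on 1 Affymetrix array, with 2 independent pools in each group, and pooling hides the spread between animals. Whole organs were used, so fewer cells of a type and less RNA per cell cannot be told apart in any value below.

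Collagens are the main structural proteins of the extracellular matrix, and each is a triple helix of alpha chains that are the products of separate genes. Fibrillar collagens build the cable-like fibres of connective tissue. Type IV collagen forms the sheet of basement membranes, such as the one that encloses each follicle, while fibril-associated collagens decorate the surface of fibres and the remaining types form beaded filaments, networks, anchoring structures or transmembrane proteins. In the ovary the stroma, the theca layer and the surface coat are rich in fibrillar collagen, and the follicle's basal lamina changes in make-up as the follicle grows.

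Intensities are given on the authors' linear scale for AMH pools 1 and 2 and then control pools 1 and 2. Differences subtract control from AMH after log2(intensity + 16), a scale on which the change of a dim probe set comes out too small, and carry limma's standard error (±, n = 2 arrays in each group). A probe set is said to have risen or fallen where its adjusted p (Benjamini-Hochberg over all 18625 tested probe sets) was below 0.05, and a gene with several probe sets is represented by the brightest tested one unless another is named.

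Several features of the arrays bear on every value. GAPDH probe sets at the 3′ and 5′ ends of the transcript had an intensity ratio, larger where RNA or its labelled copy is shorter, of 6.56 and 6.37 on the AMH arrays and 1.17 and 1.27 on the control arrays, and for beta-actin it was 10.7 and 14.4 against 3.17 and 4.6. The chip identifiers end in 2 strings, of which 0 are shared by the groups. The labels do not say what the strings stand for, and whatever they mark cannot be told apart from treatment. Ovarian markers were present: the granulosa factor gene Foxl2 had 600.2 and 617.0 in AMH ovaries and 539.3 and 395.1 in controls, and the oocyte coat gene Zp3 had 2721.8 and 1977.8 in AMH ovaries and 2531.1 and 2133.5 in controls. Summed intensities of markers cover all listed genes with a probe set. Over all tested genes 11% rose and 11.9% fell. Of 12 stroma and fibroblast markers, 3 rose (25%) and 0 fell, and their sum was 11604.8 and 16298.9 in AMH ovaries and 11508.4 and 12140.9 in controls. Of 6 tested smooth muscle and pericyte markers 0 rose and 2 fell (Acta2 and Des, 33.3%), with sums of 274.4 and 456 in AMH ovaries and 534.6 and 500 in controls, while 4 tested endothelial markers gave 0 calls by limma, and 0 at an unadjusted p under 0.05 (sums 836.9 and 1026.6 with AMH, 858.3 and 879.2 in control). Of 8 granulosa markers 3 rose (Inhbb, Wnt4 and Amhr2, 37.5%) and 0 fell, with sums of 6367.8 and 4583.1 in AMH ovaries and 3018.3 and 2779.2 in controls. Of 6 surface epithelium markers 1 rose (Upk1b), as did 1 of 5 macrophage and leukocyte markers (Cd68), and theca markers gave 0 calls among 3 by limma (1, Hsd3b1, at an unadjusted p under 0.05), with sums of 2324.4 and 468 in AMH ovaries and 421.5 and 329.8 in controls. The oocyte markers gave 4 falls (Gdf9, Bmp15, Ooep and Kit, 57.1%) and 0 rises among 7. Bmp15 had 22.6 and 22.3 in AMH ovaries and 147.5 and 115.2 in controls. Kit had 18.9 and 3.9 in AMH ovaries and 75 and 45 in controls. Both were bright enough to test only through their control arrays. The haemoglobin gene Hbb, a marker of red blood cells, had 89.4 and 55.3 in AMH ovaries and 1362 and 1166.8 in controls. Of the 5 cartilage and bone markers with a probe set, 0 were bright enough to test. The part of cell make-up, of transcript shortening and of what the strings mark in the collagen values was not tested.

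Of the 58 collagen probe sets, 41 (30 genes) were bright enough to be tested, meaning that their mean over all 4 arrays lay above the lowest 40% of the array (an intensity of about 27.8). With AMH 9 rose, 4 fell and 28 did not pass, so that 31.7% were called, against 21.5% of all tested probe sets. The rises made up 22% of the tested collagen probe sets, against 8.67% over the array, and the falls 9.76%, against 12.8%. Col13a1, counted among the 9 rises, passed the brightness filter only through its AMH arrays. The median difference was 0.10 for the collagens and 0.02 for all tested probe sets. By gene, 7 of 30 rose, 4 fell and 19 did not pass at their brightest probe set, where 22.9% of all 10622 tested genes were called, 11% higher and 11.9% lower. AMH and control arrays did not overlap for 27 of the 41 probe sets, where 63.5% of all tested probe sets were separated in this way. Rises were thus more frequent than on the array as a whole by count alone on the deposited scale, and falls were not, whereas scaling to the hybridization controls gave 0 rises (1 at an unadjusted p under 0.05, by limma) and 11 falls. Under eBayes without an intensity trend the rises numbered 5 and the falls 3, and with no filter they numbered 4 and 3. Without control replicate 1, limma called 0 of the 41 probe sets higher (9 of 41 at an unadjusted p under 0.05), and without control replicate 2 it called 2 higher, Col16a1 and Col18a1, in fits whose spread comes from the AMH pair alone and where the lone control array is assumed to vary like it. Every rise kept a positive sign in both of these fits, though sizes moved. With all arrays the differences were 0.73 for Col5a2, 0.92 for Col16a1 and 0.51 for Col6a3. Without control replicate 1 they were 0.84, 0.85 and 0.39, and without control replicate 2 they were 0.62, 0.98 and 0.62. The falls numbered 8 without AMH replicate 1, 7 without AMH replicate 2 and 3 without either control array.

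**Figure D1:**
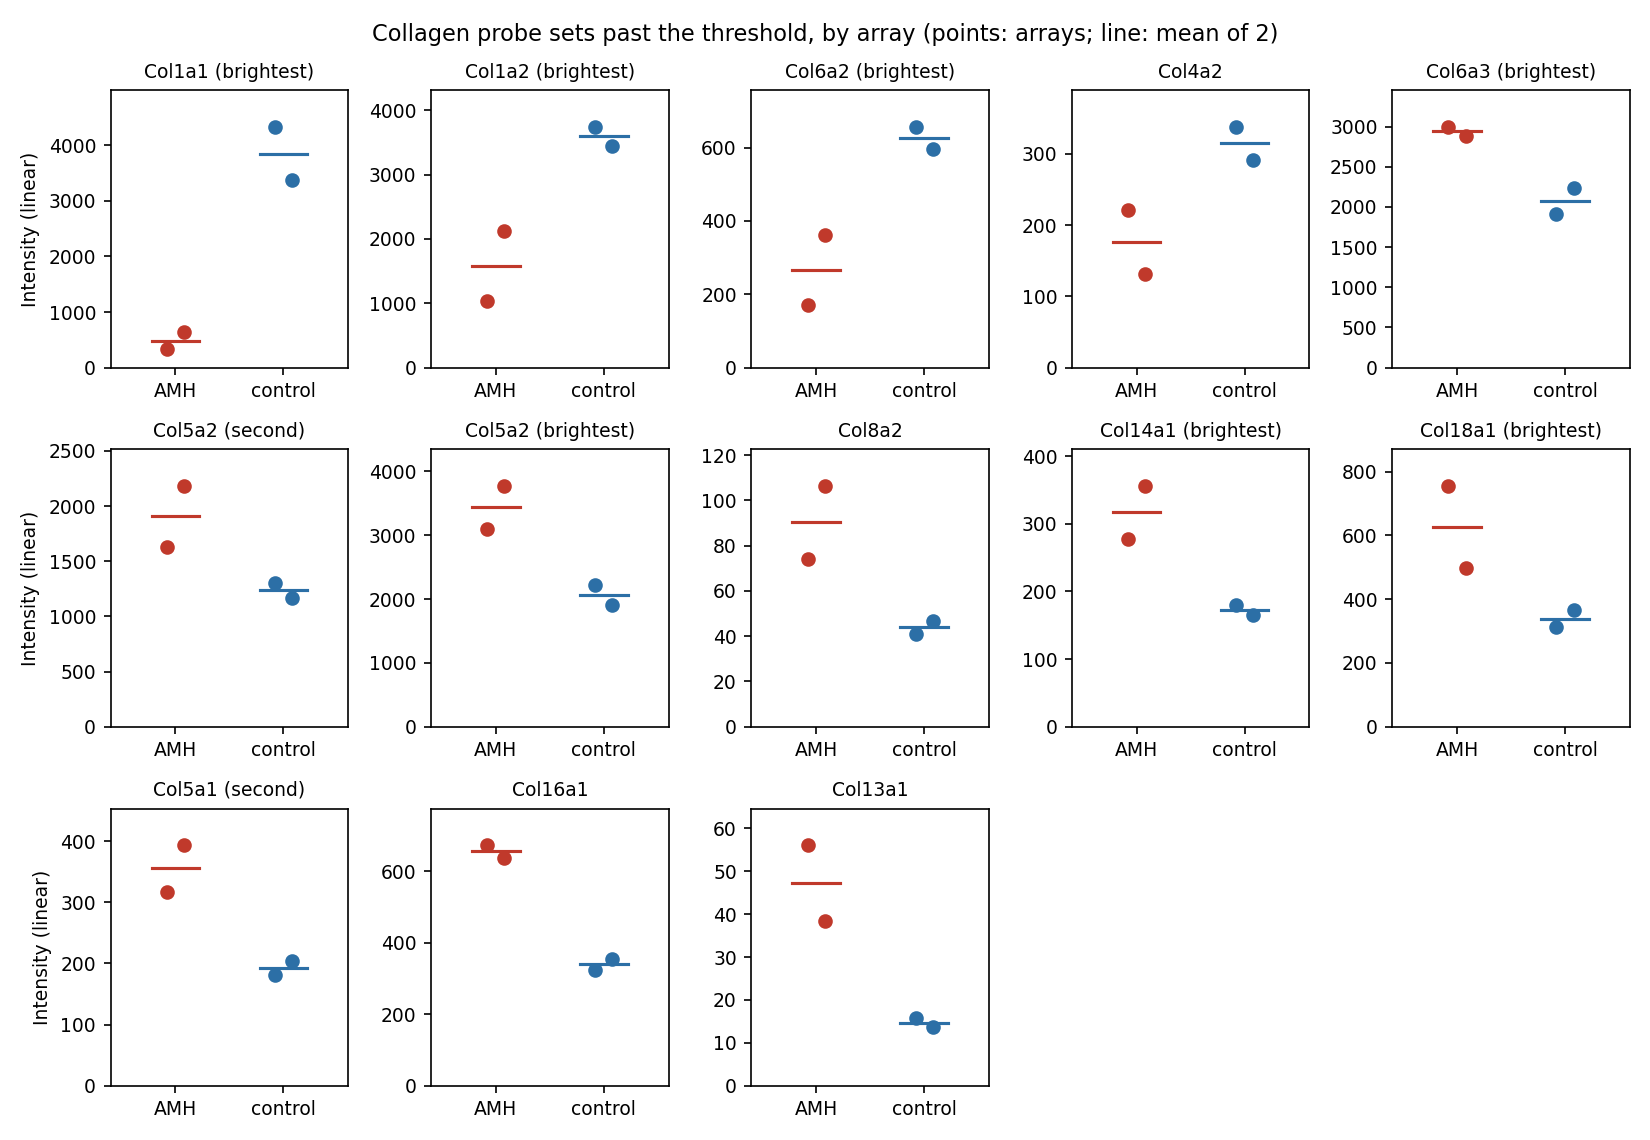
Intensity on the linear scale of the authors (y axis, from 0) of the 13 collagen probe sets past the threshold, in AMH (left, red) and control ovaries (right, blue); points are arrays and lines the mean of 2. The 4 falls, at the start, were of Col1a1, Col1a2, Col6a2 and Col4a2, and in every panel both AMH arrays lie on one side of both control arrays.

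Called fibrillar probe sets moved in opposite directions. The 2 chains of type I collagen, the main fibre of connective tissue, fell at their brightest probe sets and did not pass at their second ones. Type V collagen sits inside type I fibres and limits their width. Of its 2 measured chains, Col5a2 rose at both probe sets, while Col5a1 rose at its dimmer probe set and did not pass at its brightest. Type III, the fibre of soft and young tissue, did not pass. Of 13 tested fibrillar probe sets (8 genes), 3 rose, 2 fell and 8 did not pass, with a median difference of 0.02.

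Col1a1, which encodes the alpha-1 chain of type I collagen (chromosome 10, 80380458 to 80397461, GRCr8), had 336.4 and 639.3 in AMH ovaries, against 4330.2 and 3363.5 in control ovaries. The groups lay far apart, and the lower AMH value was that of pool 1. The difference was -2.996 ± 0.27, a 7.975-fold fall (adjusted p = 0.00057), which ranks 5 among 10622 genes counted from the largest fall. The mean over both of its probe sets passed too, at -1.77 (adjusted p = 0.00779). The second Col1a1 probe set had 662 and 973 with AMH and 1398.9 and 981.6 in control, groups that nearly touch, and a difference of -0.54 ± 0.23 (adjusted p = 0.13, 95% interval -1.06 to -0.01). On each array the 2 probe sets can be set against each other: the brightest lay -0.94 and -0.59 log2 units from the second on the AMH arrays and 1.62 and 1.76 log2 units from it on the control arrays. The order of the pair was thus turned in AMH ovaries, and the size of the Col1a1 fall depends on the probe set.

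Col1a2, the gene of the alpha-2 chain that joins 2 alpha-1 chains in type I collagen, had 1028.9 and 2123.2 in AMH ovaries, against 3744.6 and 3441.6 in control ovaries. Both AMH values were below both control values, and AMH pool 1 was again the lower. The fall was -1.27 ± 0.29 (2.412-fold, adjusted p = 0.0177), and it measured -0.75 with AMH replicate 1 left out and -1.79 with AMH replicate 2 left out. Its second probe set had 1082 and 2172.8 with AMH and 2288.5 and 1956.7 in control, values that overlap, for a difference of -0.46 ± 0.28 (adjusted p = 0.278). Leaving out AMH replicate 2 brought that probe set to -0.96 (adjusted p = 0.000881) and leaving out AMH replicate 1 to 0.038. The mean of both probe sets did not pass (-0.87, adjusted p = 0.0891). The promoter of Col1a2 is printed because the chains of type I collagen fell together at their brightest probe sets. It is the RefSeq window (GRCr8) of 250 bases before to 50 after the annotated start, at chr4:33518307-33518606 on the + strand. Matches to CCAAT and TATAAA, on either strand, are in capitals:
Col1a2: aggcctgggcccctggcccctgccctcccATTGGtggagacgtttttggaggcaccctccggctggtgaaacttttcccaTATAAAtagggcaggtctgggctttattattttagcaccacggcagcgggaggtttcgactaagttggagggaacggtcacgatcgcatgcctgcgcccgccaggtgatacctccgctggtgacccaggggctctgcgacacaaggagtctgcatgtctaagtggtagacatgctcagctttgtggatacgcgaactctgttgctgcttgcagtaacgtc
The CCAAT match lies on the opposite strand and begins at position 30 of the window, 221 bases before the annotated start. TATAAA begins at position 81, 170 bases before that start. CCAAT boxes bind the NF-Y factor and TATAAA positions the polymerase at many genes. Whether either match is in use at Col1a2 was not tested. Col1a1 is only named here.

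Col3a1, which encodes the chain of type III collagen, had 6467 and 7077 in AMH ovaries, against 6469.3 and 6761.3 in control ovaries. The groups overlapped and the difference was 0.03 ± 0.13 (adjusted p = 0.886, 95% interval -0.27 to 0.33). This interval leaves out a fall of the size seen for Col1a2 on the deposited scale. It turned to -0.45 (adjusted p = 0.178) when the arrays were scaled to the hybridization controls, a setting that moved the median of all tested probe sets to -0.39.

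Of the type V chains Col5a2 rose at its brightest probe set. It had 3104.7 and 3777.4 in AMH ovaries, against 2218.7 and 1902.9 in control ovaries, a rise of 0.73 ± 0.16 (1.662-fold, adjusted p = 0.0144). Its second probe set rose too, by 0.61 ± 0.17 (adjusted p = 0.0398), with 1630.8 and 2184.8 in AMH ovaries against 1306.5 and 1163.2 in control ovaries. It measured 0.40 without AMH replicate 2. Its call ended in 6 of 13 alternatives, among them the limma fit with the replicate number as a block (adjusted p = 0.0602). The call of the brightest Col5a2 probe set ended in 4 of 14 alternatives. Col5a2 was the only one of 11 collagen genes with several tested probe sets in which all of them were called, and at both of them the 2 AMH values lay above the 2 control values. Col5a1 gave a split picture. Its dimmer probe set had 316.6 and 394.4 with AMH and 180.5 and 203.8 in control and rose by 0.83 ± 0.18 (adjusted p = 0.0159), while the brightest had 376.3 and 398.7 with AMH and 396.7 and 364.8 in control, a difference of 0.02 ± 0.16 (adjusted p = 0.93, 95% interval -0.33 to 0.38). The third chain, Col5a3, was too dim to test, at 2.8 and 45.5 with AMH and 16 and 49.6 in control.

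The remaining fibrillar collagens did not pass. Col11a1, the chain that nucleates fibres in cartilage and is expressed in some other tissues, gave -0.22 ± 0.20 at its brightest probe set and 0.10 ± 0.34 at the second. At the second probe set the AMH pools lay far apart (81 and 203.1, against 116 and 124 in control). Col27a1 had 60.9 and 61.7 in AMH ovaries and 95.4 and 92.6 in controls, with close replicates, and missed the threshold (-0.51 ± 0.21, adjusted p = 0.112). Col24a1 gave 0.75 ± 0.42 (89.3 and 29.3 with AMH, 36.9 and 16 in control). The cartilage genes Col2a1, at 3 probe sets, and Col11a2 were below the filter, with no value above 32.9.

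The promoter window of Col5a2, the fibrillar gene that rose at both probe sets, is set beside that of Col1a2 (chr9:55090102-55090401, - strand, GRCr8). It holds 0 matches to either motif and is therefore all in lower case:
Col5a2: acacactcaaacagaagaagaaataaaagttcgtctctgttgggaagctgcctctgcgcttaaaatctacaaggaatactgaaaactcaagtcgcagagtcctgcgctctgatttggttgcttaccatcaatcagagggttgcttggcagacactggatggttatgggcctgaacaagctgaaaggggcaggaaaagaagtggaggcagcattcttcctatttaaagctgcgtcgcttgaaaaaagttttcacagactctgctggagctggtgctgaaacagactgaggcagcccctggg
Among 33469 RefSeq windows of this length, 37.5% hold CCAAT and 14.2% hold TATAAA. All motif shares given here count matches on either strand. RefSeq windows were matched for 32 of the 41 collagen genes (35 windows, since a few genes have more than 1), of which 28.6% hold CCAAT, 11.4% hold TATAAA and 54.3% hold the GC box GGGCGG, against 33.1% of all windows for the GC box. The sequence GGCGCC, at which SMAD proteins of the BMP branch can bind, is in 11.4% of the collagen windows and 11% of all windows. A match is a description of the letters only.

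Basement membrane collagens (type IV) gave 1 fall and 0 rises among 6 tested probe sets (4 genes), with a median difference of -0.03. Col18a1 and Col15a1, which also belong to basement membrane zones, are counted among the remaining types below. The genes of type IV collagen stand in pairs, head to head, and of the pair Col4a2 and Col4a1 only Col4a2 passed. Col4a2 had 221.3 and 131 in AMH ovaries, against 338.2 and 291.1 in control ovaries, and fell by 0.82 ± 0.24 on the log2 scale (1.766-fold, adjusted p = 0.0442). Both AMH values were below both controls, but the call was lost under 6 of 13 alternatives, with -0.47 (adjusted p = 0.0784) without AMH replicate 2, an adjusted p of 0.199 without control replicate 1 and 0.0763 without control replicate 2, and 0.0539 with median centring. Its partner Col4a1, which supplies 2 of the 3 chains of the commonest type IV trimer, had 867.4 and 702.3 with AMH and 691 and 683 in control at its brightest probe set (0.18 ± 0.16, adjusted p = 0.454). Its second probe set had 551.6 and 480.7 with AMH and 650.2 and 722.8 in control (-0.40 ± 0.16, adjusted p = 0.102). The 2 Col4a1 probe sets separate the groups in opposite directions, and neither passed.

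In the GRCr8 annotation 76 bases separate Col4a2 (chromosome 16, 84749672 to 84885520, - strand) from Col4a1 (84885597 to 84996482, + strand), so that their promoter windows overlap. The window of Col4a2 (chr16:84885471-84885770, - strand) is printed because the partners gave different calls:
Col4a2: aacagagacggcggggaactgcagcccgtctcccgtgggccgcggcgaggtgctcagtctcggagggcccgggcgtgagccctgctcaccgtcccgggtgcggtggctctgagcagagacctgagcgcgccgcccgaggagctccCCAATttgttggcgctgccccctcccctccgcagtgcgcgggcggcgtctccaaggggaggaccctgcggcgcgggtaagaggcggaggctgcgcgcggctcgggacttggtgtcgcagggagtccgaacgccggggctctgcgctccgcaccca
The capitals mark 1 CCAAT match, which begins at position 146, and TATAAA has 0 matches in the window. The window also holds 2 GC boxes (GGGCGG, either strand) that are left in lower case.

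The other head-to-head pair that was tested, Col4a5 and Col4a6 on the X chromosome (1263 bases apart), did not pass either. Col4a5 had 476.8 and 558.5 in AMH ovaries and 401.2 and 339.2 in controls, a separation of the groups that missed the threshold (0.47 ± 0.17, adjusted p = 0.0842), although it passed without AMH replicate 1 (0.58, adjusted p = 0.0319). Col4a6 gave 0.24 ± 0.27 and -0.23 ± 0.25 at its 2 probe sets, with intensities between 33.8 and 71.5 over all arrays. Col4a4 was below the filter, at 26.1 and 5.1 with AMH and 0.9 and 0.9 in control.

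Fibril-associated collagens gave 2 rises and 0 falls among 6 tested probe sets (5 genes), with a median difference of 0.54, the highest of the 4 groups. Col16a1, a chain found beside fibres and at cell surfaces, had 674 and 636.9 in AMH ovaries, against 324 and 355.4 in control ovaries. The groups were wide apart relative to the spread within them, and the rise of 0.92 ± 0.15 (1.889-fold) had the smallest adjusted p of the collagen rises, 0.00583. It passed in 11 of 13 alternatives, the exceptions being the fit without control replicate 1 (0.85, adjusted p = 0.0578) and scaling to the hybridization controls (0.45, adjusted p = 0.15). Its promoter window is printed as that of the rise whose call ended under the fewest alternatives (chr5:147672846-147673145, + strand, GRCr8), and it too holds 0 CCAAT and 0 TATAAA matches:
Col16a1: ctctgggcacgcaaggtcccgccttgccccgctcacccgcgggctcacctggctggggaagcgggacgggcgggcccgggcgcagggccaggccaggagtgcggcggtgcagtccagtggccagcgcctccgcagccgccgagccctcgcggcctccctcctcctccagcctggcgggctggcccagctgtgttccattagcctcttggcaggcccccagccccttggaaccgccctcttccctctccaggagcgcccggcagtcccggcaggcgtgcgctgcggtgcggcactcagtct

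Col14a1, which binds fibres together with decorin, had 278.3 and 356.6 with AMH and 179.5 and 165.2 in control and rose by 0.82 ± 0.19 (adjusted p = 0.0185). Its second probe set had 56 and 61.6 with AMH and 60.4 and 59.5 in control (-0.02 ± 0.22), and the mean of both did not pass (adjusted p = 0.142). Col12a1, a close relative of Col14a1 found in dense connective tissue, had 95.5 and 113.8 in AMH ovaries and 48 and 79 in controls and missed the threshold (0.63 ± 0.25, adjusted p = 0.112). The tested type IX chains, known from cartilage, did not pass. Col9a3 had 167.7 and 176.5 with AMH and 121.4 and 123 in control (0.44 ± 0.18, adjusted p = 0.113). Col9a2 had 26.6 and 11.6 with AMH and 40.8 and 39.9 in control (-0.72 ± 0.30, adjusted p = 0.122). Col9a2 passed the brightness filter only through its control arrays. Col22a1, a collagen of tissue junctions, lay below the filter with separated groups (50.5 and 24.8 with AMH, 12 and 13.9 in control). Col9a1, Col19a1 and Col20a1 were dimmer still.

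Type VI collagen forms beaded filaments around cells, from 1 alpha-1, 1 alpha-2 and 1 alpha-3 or related chain, and of its 3 classical chains Col6a2 fell, Col6a3 rose and Col6a1 did not pass. The differences between chains were not tested. Col6a2 had 171.8 and 361 in AMH ovaries, against 656.9 and 595.4 in control ovaries, and fell by 1.27 ± 0.29 on the log2 scale (2.411-fold, adjusted p = 0.0188). The fall measured -0.77 when AMH pool 1 was left out and -1.77 when AMH pool 2 was left out, and it passed under all 13 alternatives. Col6a3 rose by 0.51 ± 0.14 (2998.7 and 2879.6 with AMH, 1910.7 and 2233.5 in control, adjusted p = 0.0384), a call that ended in 7 of 14 alternatives, among them both fits without a control array, the replicate block and the mean over its probe sets. Its second probe set gave -0.37 ± 0.26 (100.1 and 56.6 with AMH, 102.5 and 102 in control), which became -0.70 (adjusted p = 0.0475) without AMH replicate 1. Col6a1 did not pass (1987.4 and 2445.8 with AMH, 1660.3 and 2070 in control, 0.25 ± 0.17, adjusted p = 0.327). The further type VI genes Col6a5 (-0.40 ± 0.33) and Col6a6 (-0.10 ± 0.21) did not pass, and a second Col6a2 probe set was below the filter (29.7 and 23.4 with AMH, 19.1 and 11.3 in control).

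Among the remaining types, 3 genes rose. Col18a1, a basement membrane proteoglycan whose C-terminal fragment is endostatin, had 755.9 and 497.1 with AMH and 313.6 and 364.5 in control, a rise of 0.83 ± 0.21 (adjusted p = 0.0284) that measured 0.53 when AMH pool 1 was left out and 1.12 when AMH pool 2 was left out. Its second probe set had 268.9 and 165.9 with AMH and 294.6 and 262.2 in control (-0.37 ± 0.23, adjusted p = 0.286), and the mean of the 2 was 0.23 (adjusted p = 0.491). Col8a2, a network-forming chain known from the cornea and vessel walls, had 74.1 and 106.5 with AMH and 41.1 and 46.9 in control (0.81 ± 0.24, adjusted p = 0.0465). Col13a1, a transmembrane collagen of cell-matrix contacts, had 56.2 and 38.5 with AMH and 15.7 and 13.7 in control and rose by 1.03 ± 0.27 (adjusted p = 0.0318). Col13a1 passed the brightness filter through its AMH arrays, at a mean just above the limit (27.87), and its difference ran from 0.50 with 64 added to 1.601 with 1 added. The calls of Col8a2 and Col13a1 each ended in 5 of 12 alternatives, among them the fit without AMH replicate 2 for Col8a2 (0.59, adjusted p = 0.126) and without AMH replicate 1 for Col13a1 (0.83, adjusted p = 0.0726).

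The others of this group did not pass. Col15a1, a relative of Col18a1 in basement membrane zones, had opposite signs at its probe sets: -0.57 ± 0.24 at the brightest (143.5 and 209.4 with AMH, 219.3 and 322 in control) and 0.32 ± 0.22 at the second (88.8 and 93.5 with AMH, 60 and 80.4 in control). Col7a1, the anchoring fibril of epithelia, had 53.4 and 43.1 with AMH and 23.6 and 24.7 in control (0.67 ± 0.25, adjusted p = 0.0904). Col23a1, Col25a1 and Col26a1 had differences between 0.10 and 0.56, and Col8a1, Col10a1 and Col17a1 were below the filter, with no value above 31.6. Just inside the filter lay Col13a1, Col9a2 and Col7a1, and just outside it lay Col5a3, Col2a1 and Col22a1.

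**Figure D2:**
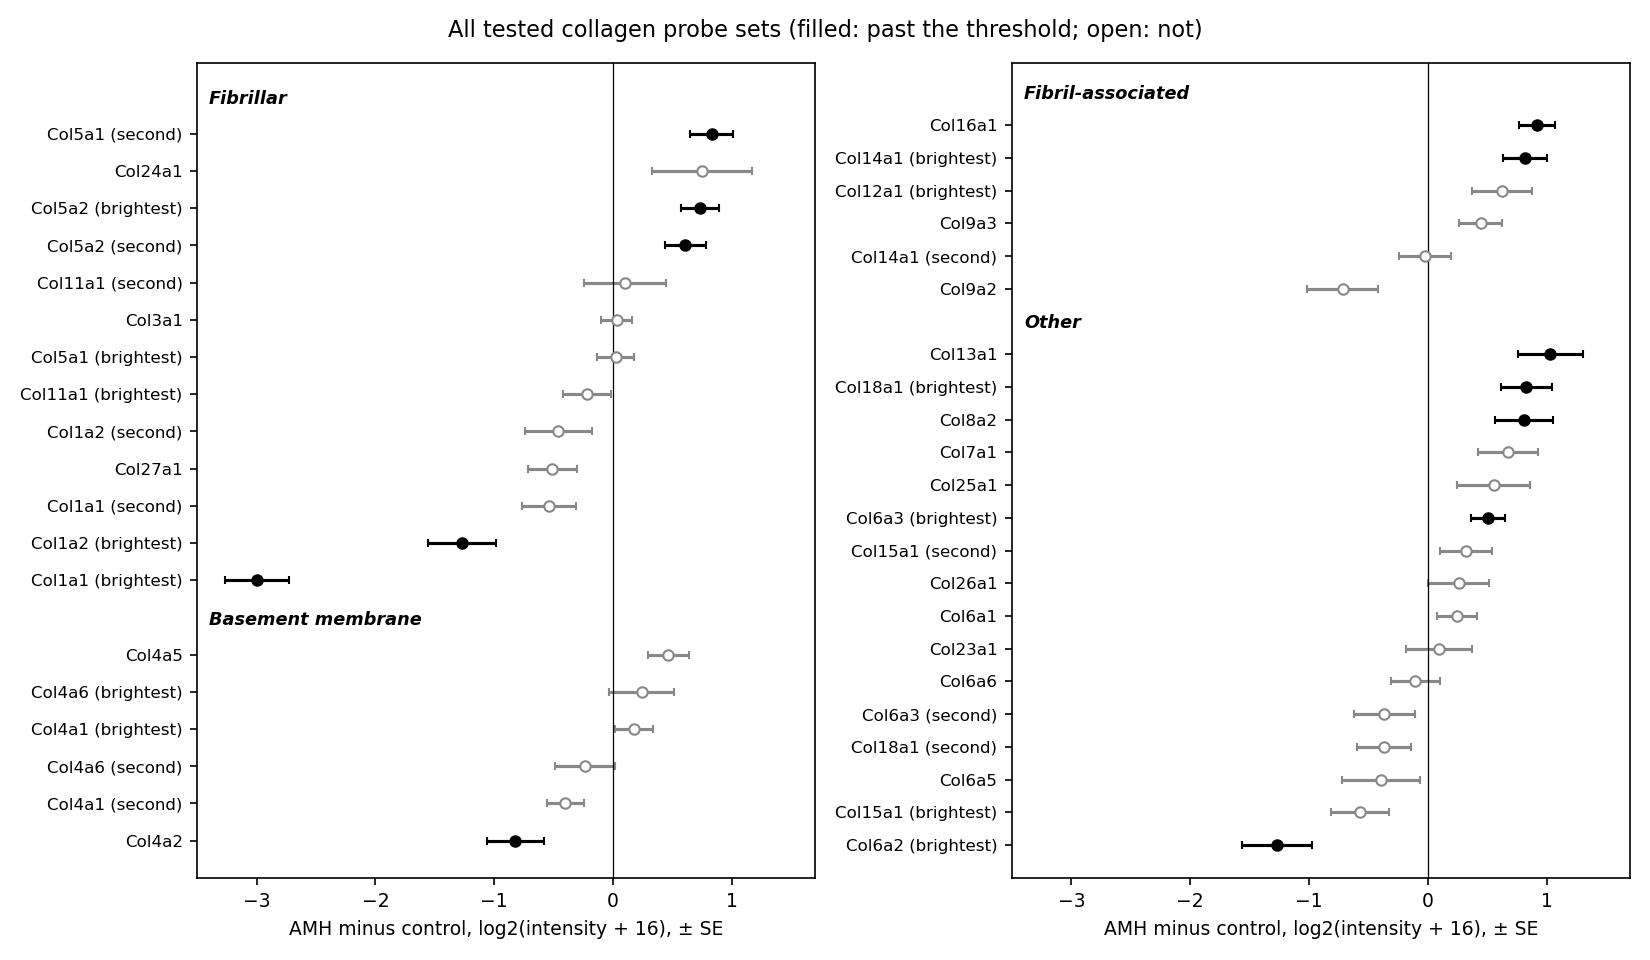
Difference between AMH and control ovaries (x axis, log2(intensity + 16), ± SE, n = 2 arrays each) for all 41 tested collagen probe sets in 4 groups; filled points passed the threshold. Differences run from -2.996 for Col1a1 to 1.03 for Col13a1, and most points lie within 1 log2 unit of 0.

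Probe sets of one gene often disagreed. Of 11 collagen genes with at least 2 tested probe sets, 6 (54.5%) had differing calls and 7 (63.6%) had differences of opposite sign, against 42.2% and 56.5% of the 2609 such genes on the array. In 0 of the collagen genes was one probe set higher and another lower by the test, which was so in 99 of the 2609. The median gap between the highest and lowest difference of a gene was 0.81 in the collagens and 0.68 in all these genes. The largest gap was that of Col1a1 (2.46), followed by Col18a1 (1.20), and the smallest that of Col5a2 (0.12). In Col18a1 the brightest probe set lay 1.44 and 1.496 log2 units above the second on the AMH arrays and 0.09 and 0.45 above it on the control arrays. The position of each probe set along its transcript was not used here, and the 3′/5′ ratios given above differed between the same arrays. Whether these ratios play a part in the disagreement was not tested.

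**Figure D3:**
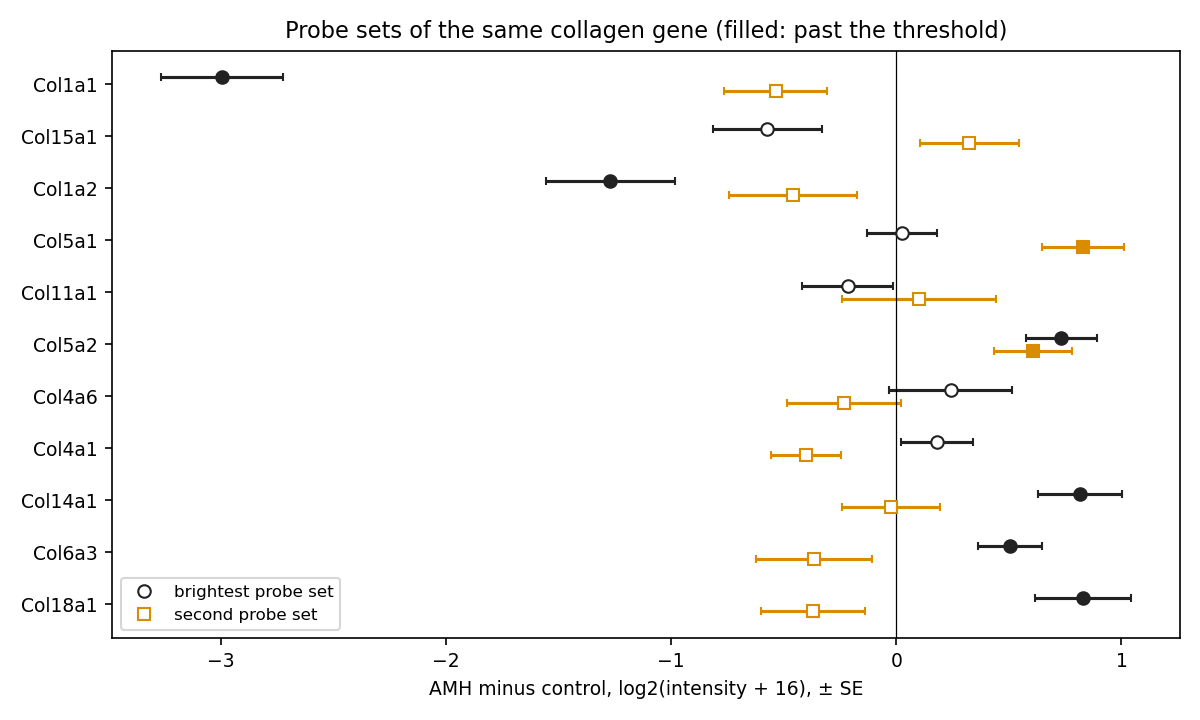
Difference between AMH and control (x axis, log2(intensity + 16), ± SE) at the brightest (circle) and second (square) probe set of the 11 collagen genes with at least 2 tested probe sets; filled symbols passed the threshold. The pair lies furthest apart for Col1a1 and closest together for Col5a2, where both passed.

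The AMH pools differed from each other in the fibrillar collagens. Of the 13 tested fibrillar probe sets, 12 (92.3%) were lower in AMH pool 1 than in AMH pool 2, with a median difference of -0.42 on the log2 scale. The exception was Col24a1. Over all tested probe sets the share was 45.8% and the median 0.04. Between the control pools 3 of the 13 were lower in pool 1, with a median of 0.12. Fibrillar probe sets that fell with AMH (Col1a1 and Col1a2) and those that rose (Col5a1 and Col5a2) were alike in being lower in AMH pool 1. Of the 12 stroma and fibroblast markers at their brightest probe sets, 9 were lower in pool 1 than in pool 2 among the AMH arrays, and 9 among the control arrays. The widest gap between the AMH pools was that of lumican (Lum), a small proteoglycan that binds collagen fibres, with 892.6 and 2676.5 in AMH ovaries and 1631 and 1468.6 in controls, while Pdgfra, Pdgfrb and Fbln1 were higher in AMH pool 1.

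Genes that make, process, bind or break down collagen were taken from a list of 59, of which 43 had a probe set and 39 were tested. At their brightest probe sets 13 of the 39 rose (33.3%), 2 fell and 24 did not pass, against 11% higher and 11.9% lower over all tested genes. Over their 58 tested probe sets 15 rose and 4 fell, with a median difference of 0.37, against 0.02 for the array. Scaling to the hybridization controls gave 2 rises and 11 falls among these probe sets, and the called total was 6 without control replicate 1 and 5 without control replicate 2.

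Of 12 tested enzymes that modify the chains inside the cell, 4 rose and 0 fell. Plod2, the lysyl hydroxylase that sets the form of crosslinks, rose by 1.10 ± 0.26 (1268 and 893.5 with AMH, 379.4 and 631 in control, adjusted p = 0.0199). Plod3, another lysyl hydroxylase, rose by 0.84 ± 0.20, P4ha2, a catalytic subunit of prolyl 4-hydroxylase, by 0.66 ± 0.20, and P3h4, a partner of lysyl hydroxylase complexes, by 0.64 ± 0.18 at the brightest of 5 probe sets, with the others between -0.43 and 0.55 and not past the threshold. Among chaperones and export factors the prolyl isomerase gene Fkbp10 rose by 0.73 ± 0.18 and the coat protein gene Sec24d by 0.64 ± 0.14. Serpinh1, the collagen-specific chaperone HSP47, had 820.5 and 1133.6 in AMH ovaries and 1440.1 and 1444.6 in controls and missed the threshold (-0.57 ± 0.18, adjusted p = 0.0513). Ppib, the isomerase of the prolyl 3-hydroxylase complex, gave -0.48 ± 0.17 (adjusted p = 0.0738), with 1684.8 and 2245.3 in AMH ovaries and 2788.6 and 2648.6 in controls.

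Outside the cell, Pcolce, which enhances removal of the C-terminal propeptide, rose by 0.67 ± 0.14 (1248.1 and 1265.5 with AMH, 817.4 and 749.6 in control, adjusted p = 0.0135). Loxl1, a lysyl oxidase of the crosslinking family, rose by 1.34 ± 0.15 (737.8 and 783.6 with AMH, 301.7 and 280.4 in control, adjusted p = 0.00125). Lox itself gave -0.27 ± 0.19 at its brightest probe set and a rise of 0.84 ± 0.19 (adjusted p = 0.0185) at another. Of 9 tested breakdown genes, inhibitors included, 3 rose (33.3%) and 2 fell (22.2%), against 11% and 11.9% of all tested genes. The median difference over their probe sets was 0.05. The gelatinase gene Mmp2 rose by 0.81 ± 0.17 and the protease gene Ctsk by 0.61 ± 0.18. The collagenase gene Mmp13 rose by 1.29 ± 0.34 (109.1 and 56.9 with AMH, 32.7 and 15.4 in control). At their brightest probe sets Mmp9 gave 0.50 ± 0.23 and Mmp14 -0.58 ± 0.20 (adjusted p = 0.0753), and neither passed. Mmp13, counted among the 13, passed the brightness filter through its AMH arrays. Of the inhibitors of these proteases Timp1 fell by 0.96 ± 0.15 (920.8 and 988.6 with AMH, 2037.6 and 1725.4 in control, adjusted p = 0.00445). Timp3 fell by 0.80 ± 0.21 at its brightest probe set but at 0 of 2 dimmer ones. Timp2 gave 0.34 ± 0.16 at its brightest probe set and did not pass. Its dimmer probe set had the opposite sign and missed the threshold (-0.80 ± 0.26, adjusted p = 0.0619). The values there were 46.3 and 27.4 with AMH and 82.5 and 67.7 in control. Of the collagen receptors Ddr2, a receptor tyrosine kinase activated by fibrillar collagen, rose by 0.68 ± 0.17 and 1.26 ± 0.22 at 2 probe sets but fell by 1.01 ± 0.26 at another. The integrin gene Itgb1 rose by 0.48 ± 0.15 at its brightest probe set, with 0.20 ± 0.17 (adjusted p = 0.43) at the other. Ddr1 did not pass at its brightest probe set (0.14 ± 0.22). Its dimmer one fell (22.3 and 13.3 with AMH, 45.5 and 50.1 in control), and passed the brightness filter through its control arrays.

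**Figure D4:**
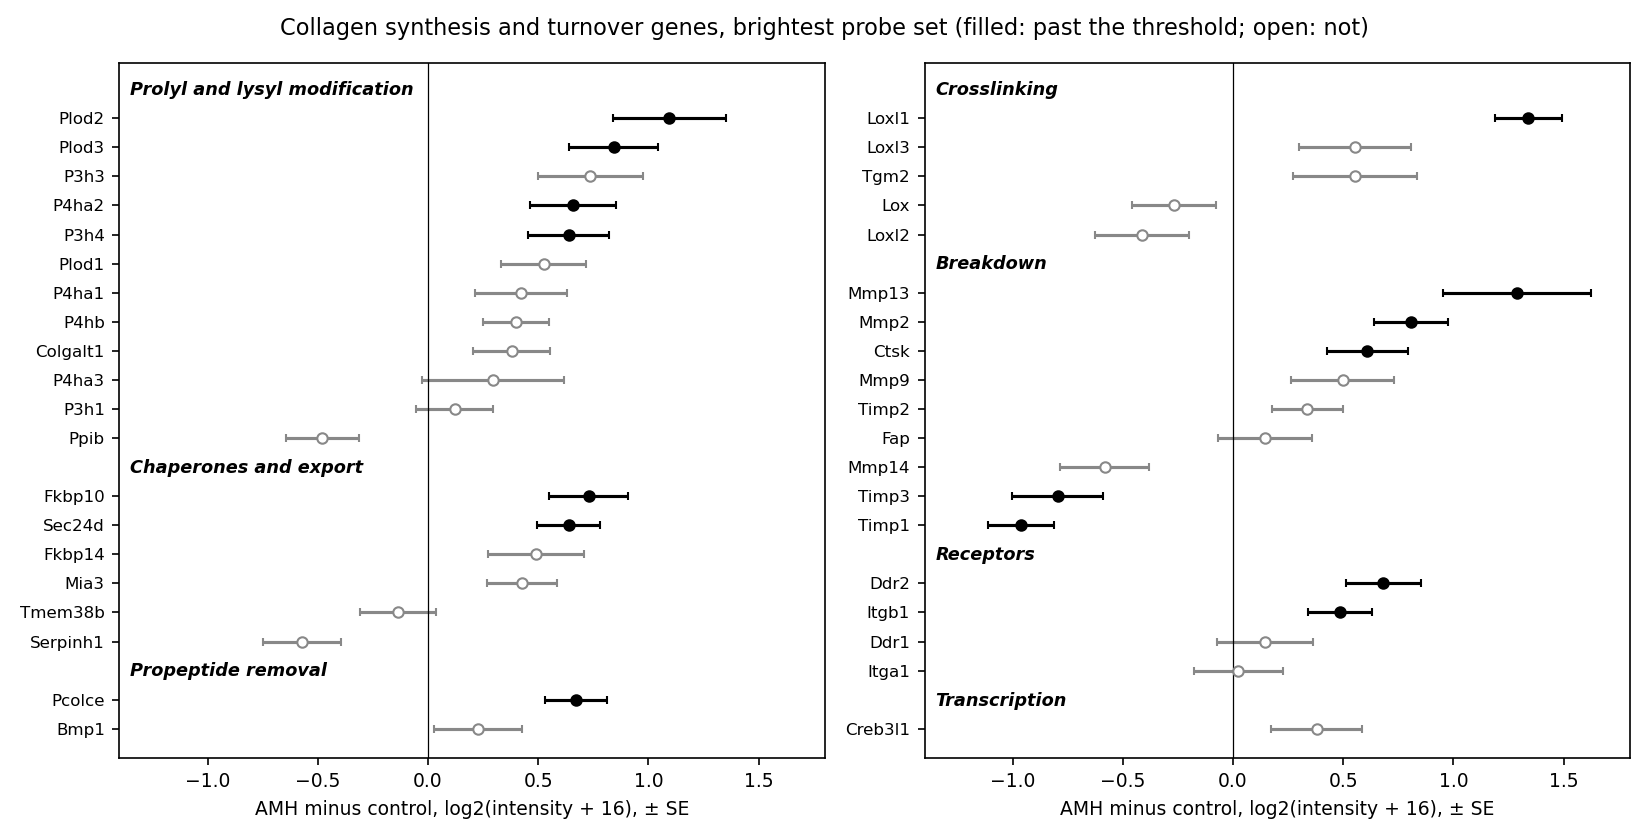
Difference between AMH and control (x axis, log2(intensity + 16), ± SE, n = 2 arrays each) at the brightest probe set of 39 genes of collagen synthesis and turnover, by role; filled points passed the threshold. Of the 15 filled points, 13 lie right of 0, and the 2 left of it are Timp1 and Timp3.

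The genes whose pattern over the 4 arrays was most like that of Col1a1 were not matrix genes. Among 10592 tested genes that are no collagen, the smallest Euclidean distances of centred log2 values were those of Lsm2, an RNA-binding protein (0.30), Selenoh, a selenoprotein (0.47), Rpl24, a ribosomal protein (0.48), S100a11, of the S100 calcium-sensing family (0.52), and Atp5mg of the mitochondrial ATP synthase (0.53). Lsm2 had 33.7 and 58.9 in AMH ovaries and 455.6 and 424.6 in controls. Rpl24 had 526.3 and 751 in AMH ovaries and 4169.7 and 4118.5 in controls. Each of the 5 fell, with log2 differences between -2.90 and -2.57, and was lower in AMH pool 1 than in AMH pool 2. Both traits follow from the choice of these genes by likeness to the brightest Col1a1 probe set, which has them. The second Col1a1 probe set was not used for the distances.

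The direction of the smaller differences depended on how the arrays were brought to a common scale. The deposited values set the trimmed mean of each array to 125.03. Labelled transcripts spiked into the hybridization mix as controls gave geometric mean intensities of 1530 and 1266 for AMH and 947.6 and 1044 for control. Scaling to them gave 0 rises (1 at an unadjusted p under 0.05, by limma) and 11 falls among the 41 collagen probe sets, against 9 and 4 on the deposited scale. The same scaling moved the share of lower probe sets among all calls from the whole array to 97.1%, against 59.6%, and the median of all tested probe sets to -0.39, against 0.02. The median of the collagens was then -0.29. The falls of Col1a1 (-3.47), Col1a2 (-1.75), Col6a2 (-1.73) and Col4a2 (-1.27) passed on both scales, and 0 of the 9 rises passed after scaling to the spiked controls. All 9 kept a positive sign there, from 0.02 for Col6a3 to 0.73 for Col13a1. Quantile normalization and median centring each gave 9 rises.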

How the data were processed

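Expression was measured on 1-colour Affymetrix arrays, 2 AMH and 2 control, each from an independent pool of about 10 ovaries, per the labels. The deposited unit is linear probe set intensity, which the authors had scaled per array to one target (mean without the lowest and highest 2% of 125.03 on every array). The labels name no summarisation software. Detection calls were not used here and brightness stood in for detection, and the number of arrays limits precision.

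Sample titles gave the groups and replicate numbers. From the deposited intensities log2(intensity + 16) was computed, 57 control probe sets and the lowest 40% of the others by mean over all 4 arrays were left out, and AMH was compared with control over 18625 probe sets in R 4.3.3 with limma 3.58.1 (lmFit, eBayes with an intensity trend, two-sided, Benjamini-Hochberg, threshold 0.05). The fit had 2 residual and 6.33 prior degrees of freedom, and no exact permutation test of 2 against 2 arrays can go below p = 0.333. The fit was tested on simulated data. Genes were named from the platform annotation where a probe set had 1 symbol (20832 probe sets; 436 had several and 9831 had none listed), and all 58 collagen symbols matched a RefSeq gene of GRCr8 by gene ID. Promoter windows are those of RefSeq.

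The members, the groups (fibrillar: types I, II, III, V, XI, XXIV and XXVII; basement membrane: type IV; fibril-associated: types IX, XII, XIV, XVI and XIX to XXII; other) and the lists of pathway and marker genes were chosen with earlier results of these data known. Every collagen gene was to be accounted for, with array values for genes past the threshold and for types I, III, IV, V and VI, and the 5 genes nearest to Col1a1 in pattern were to be named. Other collagens given with array values, and the pathway and marker genes named, were picked after their values were seen. Alternatives were another added constant (64 or 1), another filter, quantile, median and hybridization control scaling (9 control probe sets), eBayes without a trend, the replicate number as a block, each array left out and the mean over the probe sets of a gene. Replicate numbers were not used to pair the arrays in the main fit. The difference between replicates 1 and 2 correlated at -0.0008 across probe sets between the groups, and the labels name no shared litter or day. This correlation cannot show that the pools were unrelated, since each group gave only the difference between its 2 arrays.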

Additional observations from a re-analysis of the deposited data

How the results depend on the processing

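Array number and array scaling limit these results, and dim collagens have no reliable size of change. For the 26 collagen probe sets followed through up to 14 alternatives each, 271 values kept direction and side of the threshold, 48 lost the call, 9 gained it and 14 changed sign. Col1a1 at its brightest probe set and Col6a2 passed under every alternative run. With no filter, where more tests share the adjustment and standard errors changed too, the count of called collagen probe sets (13) was 7. Without the intensity trend this count was 8 (the rises were 4 and 5 in these fits). With one array left out it ran from 3 to 18, the rises from 0 to 10 and the falls from 3 to 8, and the counts rested on the AMH pair alone without a control array and on the control pair alone without an AMH array. Hybridization control scaling gave 0 rises and 11 falls. The called pathway probe sets (19) numbered 12 with no filter and 5 to 24 with one array left out, and the called marker genes 9 to 28. The replicate block gave 7 rises and 4 falls, with the calls of Col5a2 (second probe set, 0.0602) and Col6a3 (0.0718) lost.

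All 14 sign changes were in probe sets that had not passed. With hybridization control scaling they were Col3a1 (-0.45), Col4a1 (-0.29), Col4a6 (-0.12), Col5a1 (-0.44) and Col6a1 (-0.23), all at the brightest probe set. The mean over probe sets turned Col4a1 (-0.11), and quantile normalization turned Col5a1 (-0.0134). With one array left out Col1a2 at its second probe set ran from -0.96 to 0.0378, Col3a1 from -0.0323 to 0.10, Col4a6 from -0.0614 to 0.54, Col5a1 from -0.0331 to 0.083, Col6a5 from -0.90 to 0.11 and Col6a6 from -0.32 to 0.11. The causes were not tested.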
